A study of Mus musculus with 33 samples.

Results

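The helper lineage transcription factors examined here were Tbx21 (encoding T-bet), Gata3, Rora, Bcl6, Eomes, Runx3 and Ahr. They were chosen by gene symbol, as the rows of the count table whose Ensembl mouse identifier carries one of these symbols in the GRCm38 annotation, and they were 7 of 31054 features. All 7 passed the filter on low values, which kept 25347 genes with at least 1 CPM, a count per 1e6 counts of a library after scaling, in at least 1 library.

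CD4+ T cells take on a helper lineage under the control of a small set of transcription factors. T-bet and its relative Eomes direct type 1 and cytotoxic programmes, GATA3 directs the type 2 programme, RORα takes part in the type 17 programme, and BCL6 directs follicular helper cells. Tregs, the Foxp3-expressing T cells that restrain immune responses, can express the same factors, and GATA3 and RORα are known from Tregs that live in tissues.

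Bulk RNA-Seq with the SMART-Seq v4 kit covered 11 sorted subsets with 3 libraries each. The 7 Treg subsets were graft Tregs, SP/CD127-/lo, SP/CD127hi, DLN/CD127-/lo and DLN/CD127hi Tregs of tolerant mice, and SP/naive and DLN/naive Tregs of naive mice, where SP is spleen, DLN is the lymph node that drains the graft and CD127 is the IL-7 receptor α-chain. The 4 Foxp3- subsets were CD4+ T cells and CD45+CD4- cells from the spleen of naive and of tolerant mice. All mice were DEREG mice, whose transgene expresses a diphtheria toxin receptor fused to eGFP from the Foxp3 promoter, so Tregs were sorted as CD4+GFP+ cells. Tolerant mice carried 4000 islet equivalents of porcine neonatal islet cell clusters under the renal capsule, had received MR-1, an antibody against CD154, at 500 µg per mouse and dose and CTLA4-Fc at 500 µg per mouse, and were used at day 100. Naive mice had neither a transplant nor treatment. According to the methods, libraries were made from pools of mice and the naive lymph nodes came from female mice while tolerant mice were male. Sex and treatment therefore cannot be told apart in comparisons of tolerant with naive lymph node Tregs, and too few naive mice were used for fully separate pools, so p-values measure the spread between libraries, which may in part be technical.

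The 24 libraries of spleen and graft, run on a NextSeq 500, held 2550698 to 4615283 read pairs on genes. The 9 DLN libraries, run on a MiSeq, held 844039 to 1935323, and the effect of the sequencer cannot be told apart from that of the lymph node. Where a gene had no read, its level could still be up to 0.637 to 1.18 CPM in the spleen and graft and up to 1.64 to 3.11 CPM in the DLN, which is what 3 counts amount to after scaling, for counting error only. Foxp3 was between 166 and 672 CPM in every Treg library and at most 8.20 CPM in the other libraries. Il7r, which encodes CD127, was higher in SP/CD127hi than SP/CD127-/lo Tregs (1172 ± 80.04 against 311 ± 45.6 CPM, mean ± SD, n = 3, adjusted p = 0.00163). In the DLN, Il7r was 635, 476 and 678 CPM in CD127hi and 265, 784 and 516 CPM in CD127-/lo libraries. These groups overlapped (adjusted p = 0.972), so the CD127 labels of the DLN were not separated by this transcript. Bulk libraries do not tell fewer cells of a type from less RNA per cell.

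The promoters of 6 of the 7 genes were found among RefSeq sequences (GRCm38.p6), and 4 windows of 250 bases before a transcript start are shown for the members on which the results turn. Gata3 and Rora moved most closely together across splenic and graft Treg libraries. Bcl6 had its lowest means there in the subsets in which both were highest, though these overlapped with SP/naive Tregs. Runx3 was called between DLN subsets, with calls that depended on the setting. The Gata3 window (chr2:9878601-9878850, minus strand) lies inside the annotated gene (chr2:9857078-9890034), downstream of its outermost start, and within an exon of the antisense gene Gm13256. The Rora window is at chr9:68653536-68653785 (plus strand). The Bcl6 window precedes the downstream of its listed starts (chr16:23981284-23981533, minus strand) and the Runx3 window precedes the distal start (chr4:135120395-135120644, plus strand). Capitals mark matches on either strand to the letters TGTGGT (RUNX), GCGTG (AHR), TTCCNNGAA (BCL6) and TTCNNNGAA (STAT), and every TTCCNNGAA match is also a TTCNNNGAA match.
Gata3: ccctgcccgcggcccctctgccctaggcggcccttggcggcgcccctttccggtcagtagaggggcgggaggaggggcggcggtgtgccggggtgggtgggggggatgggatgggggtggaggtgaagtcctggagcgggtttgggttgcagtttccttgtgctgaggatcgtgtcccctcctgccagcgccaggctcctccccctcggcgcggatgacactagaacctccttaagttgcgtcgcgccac
Rora: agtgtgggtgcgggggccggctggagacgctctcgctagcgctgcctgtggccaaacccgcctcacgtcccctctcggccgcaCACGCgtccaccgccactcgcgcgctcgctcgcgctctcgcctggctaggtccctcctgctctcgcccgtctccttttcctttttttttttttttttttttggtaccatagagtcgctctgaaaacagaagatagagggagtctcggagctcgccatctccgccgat
Bcl6: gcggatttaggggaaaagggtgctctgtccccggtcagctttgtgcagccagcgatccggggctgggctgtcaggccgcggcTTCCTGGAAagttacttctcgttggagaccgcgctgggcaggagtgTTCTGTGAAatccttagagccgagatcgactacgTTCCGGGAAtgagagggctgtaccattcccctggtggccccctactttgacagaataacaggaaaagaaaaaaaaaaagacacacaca
Runx3: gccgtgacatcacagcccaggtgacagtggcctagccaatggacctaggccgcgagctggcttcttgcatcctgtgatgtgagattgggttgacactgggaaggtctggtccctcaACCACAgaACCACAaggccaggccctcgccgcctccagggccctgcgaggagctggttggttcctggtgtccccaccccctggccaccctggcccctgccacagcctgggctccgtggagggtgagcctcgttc
The Runx3 window held TGTGGT as its reverse complement at 134 and 126 bases before the start, and 13.96% of 32536 distinct promoter windows held this motif. The window of its other listed start (chr4:135152295-135152544) held none of the motifs searched. In the Bcl6 window, TTCCNNGAA lay at 168 and 88 bases before the start, a motif held by 4.06% of windows, and a further TTCNNNGAA lay at 122 bases (7.04% of windows). The window of the other Bcl6 start (chr16:23988853-23989102) held no TTCCNNGAA and 1 TTCNNNGAA, at 118 bases. GCGTG was found once in the Rora window and in 28.3% of all windows. The listed windows of the members held no AGATAA (9.97% of all windows) and no match to the other GATA motif searched, TGATAA (7.79%). They also held no match to the T-box letters GGTGTGA, which were in 3.33% of all windows, and none to AGGTCA, the letters of the ROR motif, which were in 14.04%.

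Gata3 was the most abundant of the 7 factors in every T cell subset when levels were divided by exon length. It reached 63.1 CPM per kb of exon in SP/CD127hi Tregs, 51.0 in graft Tregs, 11.7 in naive and 15.3 in tolerant CD4+ T cells, and it made up 46.9% to 62.7% of the summed length-scaled level of the 7 factors in the 7 Treg subsets. In CD45+CD4- cells this share was 10.6% (naive) and 6.22% (tolerant), and Runx3, Bcl6 and Eomes led there, with 14.6, 10.2 and 11.1 CPM per kb in naive and 13.8, 14.4 and 10.02 CPM per kb in tolerant mice.

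**Figure D1:**
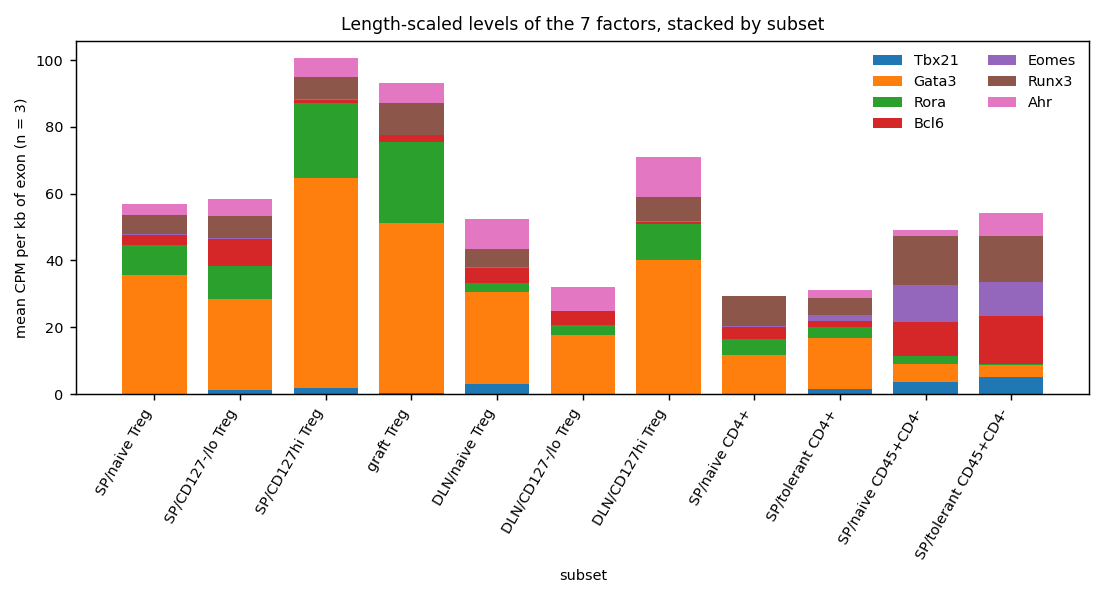
Mean CPM per kb of exon (y axis, n = 3 libraries) of the 7 factors, stacked for each of the 11 subsets (x axis). Gata3 is the largest segment in all Treg and CD4+ subsets, and the stack is highest in SP/CD127hi (101) and graft Tregs (93.2).

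Across the 19 pairwise comparisons, 6 of 133 pairs of a member and a comparison passed an adjusted p of 0.05, while 0.0197% to 1.53% of all genes did, depending on the comparison, by the quasi-likelihood test of edgeR, adjusted after Benjamini and Hochberg over all 25347 genes. Ahr accounted for 3 of the calls, Runx3 for 2 and Rora for 1, and Tbx21, Gata3, Bcl6 and Eomes had none (with 6, 5, 3 and 4 comparisons, respectively, at an unadjusted p under 0.05). In 50 of the 133 pairs the libraries of the subsets did not overlap, while 5.37% to 19.1% of all genes tested did not overlap, depending on the comparison. These pairs share libraries and are not independent, and some of Tbx21 and Eomes lie at the counting limit. No exact permutation test was run on single genes, since with 3 libraries against 3 its smallest 2-sided p is 0.1.

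**Figure D2:**
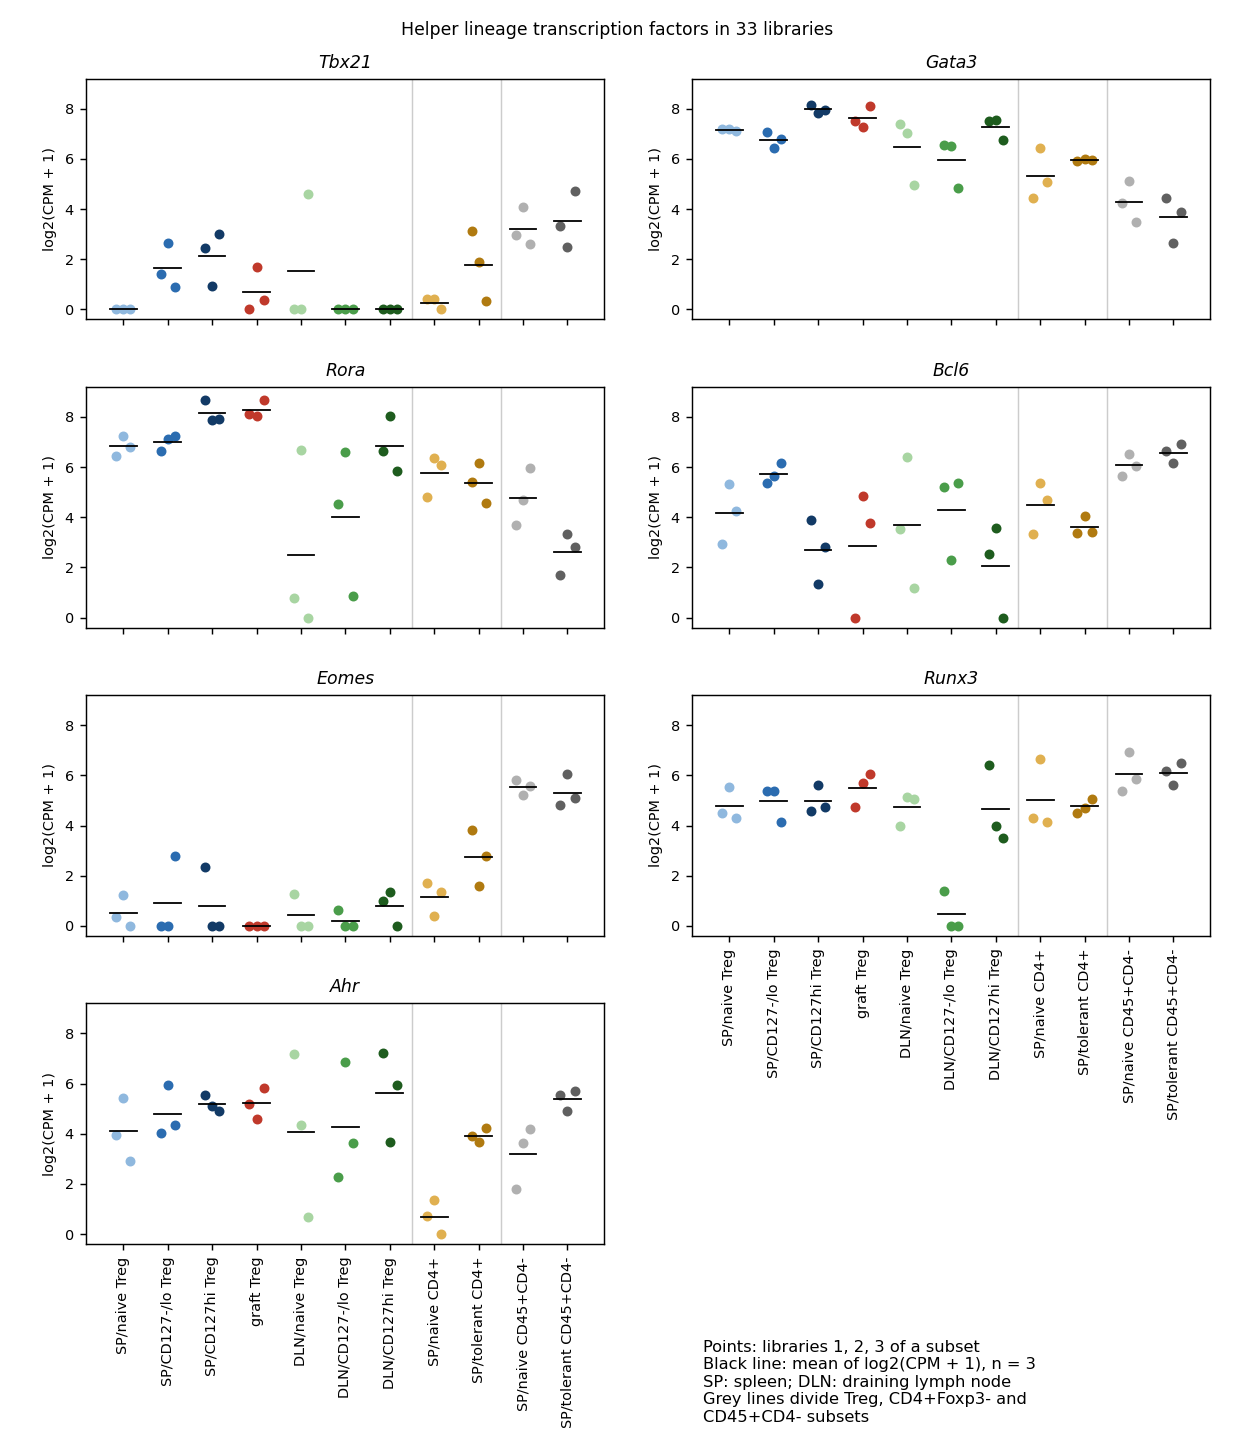
Levels of the 7 factors as log2(CPM + 1) (y axis) in the 33 libraries by subset (x axis), with points for libraries and black lines for means (n = 3). Gata3 and Rora are highest in SP/CD127hi and graft Tregs, Eomes is highest in CD45+CD4- cells, and several factors fall to 0 in single DLN libraries.

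Gata3, the zinc finger factor of type 2 helper cells (gene ENSMUSG00000015619, chr2:9857078-9890034, minus strand), was at 281, 224 and 248 CPM in the 3 SP/CD127hi Treg libraries. It was at 132, 84.5 and 111 CPM in SP/CD127-/lo Tregs, and at 147, 143 and 136 CPM in SP/naive Tregs. The SP/CD127hi libraries were all above those of the other splenic Treg subsets. The log2 fold change was 1.20 (SE 0.69) against SP/CD127-/lo Tregs and 0.82 (SE 0.68) against SP/naive Tregs, and neither passed the test (adjusted p = 0.778 and 0.950). In graft Tregs Gata3 was at 181, 154 and 273 CPM, which overlapped with SP/CD127hi Tregs and lay above SP/CD127-/lo and SP/naive Tregs, again without a call (adjusted p = 0.850 and 0.955). CD4+Foxp3- T cells held less Gata3, with 21, 86.5 and 32.5 CPM in naive and 58.8, 62.3 and 61.0 CPM in tolerant mice. The graft Treg libraries did not overlap with naive CD4+ T cells (log2 fold change 2.12, SE 0.71, adjusted p = 0.172), nor did SP/CD127hi Tregs (2.43, SE 0.72, adjusted p = 0.125). Both differences were called with DESeq2 (adjusted p = 0.0188 and 0.00696) and without the DLN libraries (0.0326 and 0.0129), and that of SP/CD127hi Tregs also with the compared libraries alone (0.0193). The DLN Treg libraries were uneven, from 27.8 to 189 CPM, and DLN/CD127hi Tregs (182, 189 and 108 CPM) lay above DLN/CD127-/lo Tregs (94.3, 89.6 and 27.8 CPM). Exons of Gata3 overlap those of Gm13256 and 9230102O04Rik, and the reads were counted without strand, so reads of Gata3 and of these genes cannot be told apart there. The same holds for exons of Rora (Gm15511), Bcl6 (Gm37419), Eomes (Gm33460) and Ahr (Gm48236), which overlap exons of the gene in parentheses.

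Rora, which encodes the nuclear receptor RORα (ENSMUSG00000032238, chr9:68653786-69388246, plus strand), was also highest in graft and SP/CD127hi Tregs. Graft Tregs were at 281, 265 and 406 CPM and SP/CD127hi Tregs at 404, 233 and 238 CPM, while SP/CD127-/lo Tregs were at 100.3, 137 and 152 CPM and SP/naive Tregs at 86.2, 149 and 111 CPM. Each library of the first pair of subsets was above each library of the second pair. The log2 fold change was 1.17 (SE 0.75) for SP/CD127hi relative to SP/CD127-/lo Tregs and 1.46 (SE 0.76) for graft against SP/naive Tregs, and neither passed the test (adjusted p = 0.778 and 0.662). Naive CD4+ T cells were at 26.9, 82.3 and 67.8 CPM and tolerant CD4+ T cells at 41.5, 70.3 and 22.9 CPM, below all libraries of the 4 splenic and graft Treg subsets. SP/CD127hi Tregs exceeded tolerant CD4+ T cells with a log2 fold change of 2.70 (SE 0.79, adjusted p = 0.136). This difference was called without the DLN libraries (0.00702, a setting chosen after seeing the data), with the compared libraries alone (0.00153) and with a replicate block (0.0211). It was not called with the likelihood ratio test, DESeq2, RLE scaling, no filter, the stricter filter, ComBat-Seq or any single library left out. In the DLN, Rora was at 0.710, 103 and 0 CPM in naive, 21.8, 97.6 and 0.818 CPM in CD127-/lo and 98.3, 262 and 57.0 CPM in CD127hi Tregs. Replicate 2 was the highest library in each of these subsets, and the groups overlapped. DLN/CD127hi against DLN/naive Tregs gave a log2 fold change of 2.01 (SE 0.78, adjusted p = 0.263), and without DLN/naive replicate 2 it was called (adjusted p = 6.07e-07). DLN/CD127-/lo against DLN/naive Tregs gave a log2 fold change of 0.20 (adjusted p = 1), whose sign depended on the library left out and which was called as higher without DLN/naive replicate 2 (adjusted p = 0.000262). The other 2 DLN/naive libraries held 1 and 0 counts of Rora, so fitted sizes without replicate 2 depend on the prior count and are not given.

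In CD45+CD4- cells, Rora was at 11.9, 24.8 and 61.5 CPM in naive and 2.21, 9.07 and 6.11 CPM in tolerant mice. These ranges did not overlap, and the log2 fold change of -2.49 (SE 0.80) had an unadjusted p of 0.00215 and an adjusted p of 0.747. All 8 T cell markers were detected in both subsets, and their summed level was 2606 to 3811 CPM in naive and 1446 to 1892 CPM in tolerant CD45+CD4- cells, again without overlap. That of the 2 CD8 T cell markers did not overlap either (370 to 760 against 225 to 325 CPM). Their part in the lower Rora was not tested. Tolerant CD4+ T cells exceeded tolerant CD45+CD4- cells in Rora by a log2 fold change of 2.94 (SE 0.81, adjusted p = 0.0295), the 1 member called in this comparison, in which 1.53% of all genes were called. The call was lost without tolerant CD4+ replicate 2 (adjusted p = 0.183) and without tolerant CD45+CD4- replicates 1 and 3 (0.148 and 0.120). It was also lost with edgeR's likelihood ratio test (adjusted p = 0.108), DESeq2 (0.148) and the stricter filter of 10 counts in 3 libraries (0.188).

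Bcl6, the repressor that directs follicular helper cells and germinal centre B cells (ENSMUSG00000022508, chr16:23965052-23988852, minus strand), was highest among splenic Tregs in the SP/CD127-/lo subset. It was at 40.1, 49.6 and 70.1 CPM in SP/CD127-/lo, at 6.61, 38.9 and 17.9 CPM in SP/naive and at 14.01, 1.53 and 6.08 CPM in SP/CD127hi Tregs. SP/CD127-/lo libraries lay above both other subsets. Relative to SP/CD127-/lo Tregs, SP/CD127hi Tregs had a log2 fold change of -2.87 (SE 1.22), with an unadjusted p of 0.0198 and an adjusted p of 0.585. Graft Tregs were at 0, 27.4 and 12.8 CPM, below every SP/CD127-/lo library. Bcl6 was highest in CD45+CD4- cells, with 49.2, 91.3 and 64.4 CPM in naive and 100.3, 69.8 and 119 CPM in tolerant mice, and tolerant CD4+ T cells (9.35, 15.7 and 9.79 CPM) were below them (log2 fold change -3.05, SE 1.23, adjusted p = 0.231). In the DLN, Bcl6 ranged from 0 to 82.7 CPM and the subsets overlapped.

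Of the 7 members, 0 were called between SP/CD127hi and SP/CD127-/lo Tregs, where 0.0907% of all genes were, and 1 had an unadjusted p under 0.05. Gata3, Rora and Bcl6 did not overlap in that comparison, 3 of 7 members against 10.6% of all genes. Between SP/CD127hi and SP/naive Tregs 3 members did not overlap (Tbx21, Gata3 and Rora, all higher, against 6.77% of all genes) and 0 were called (0.0197% of all genes), with 1 at an unadjusted p under 0.05. Between SP/CD127-/lo and SP/naive Tregs 3 members did not overlap (Tbx21 and Bcl6 higher, Gata3 lower, against 8.97% of all genes) and 0 were called (0.071%), with 1 at an unadjusted p under 0.05. In both comparisons with SP/naive Tregs, the separation of Tbx21 lies at the counting limit. The lowest SP/CD127hi and SP/CD127-/lo libraries held 3 counts (0.918 and 0.879 CPM), and SP/naive libraries without a read could still be at up to 1.015 CPM. Between graft and SP/CD127-/lo Tregs 3 members did not overlap (7.2% of all genes), between graft and SP/naive Tregs 2 (8.15%) and between graft and SP/CD127hi Tregs 0 (8.52%), and 0 members were called (0.0829%, 0.13% and 0.103% of all genes). In each of these comparisons of graft Tregs, 1 member had an unadjusted p under 0.05. Summed over 6 kidney epithelium markers, graft Treg replicate 2 held 891 CPM and the other 2 graft libraries 117 and 16.4 CPM, against at most 11.2 CPM in splenic Tregs, and graft replicate 2 was the lowest graft library for Gata3 and Rora. The summed level of 8 macrophage and monocyte markers was 145 to 248 CPM in SP/CD127hi, 8.30 to 302 CPM in SP/CD127-/lo and 0 to 472 CPM in graft Tregs, where Csf1r, Adgre1 and C1qa had no read and 5 of the 8 were detected. The part of these cells in the results was not tested.

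**Figure D3:**
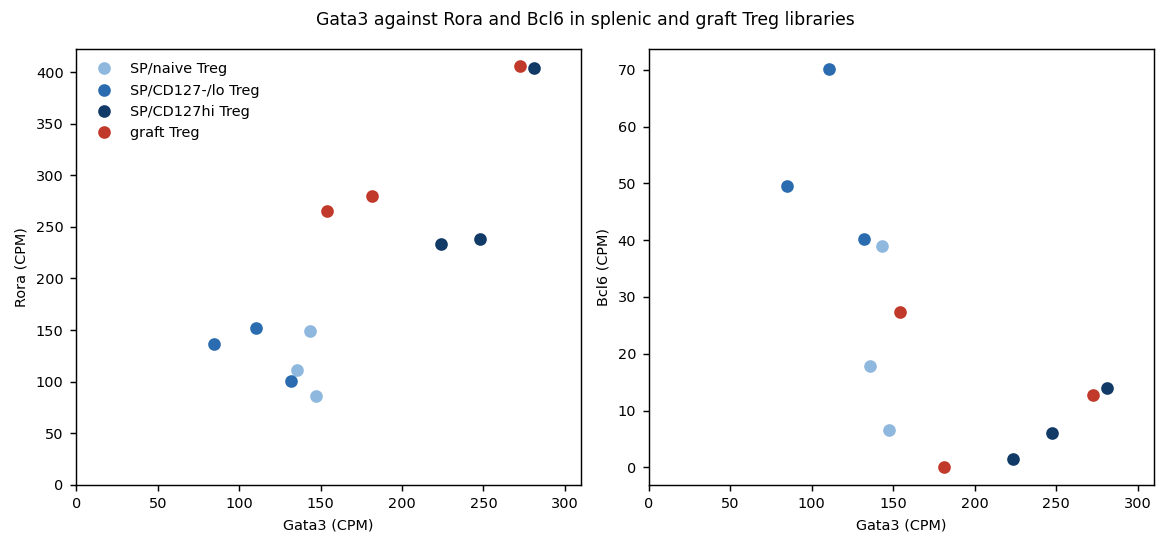
Rora (left) and Bcl6 (right) in CPM on the y axes against Gata3 in CPM on the x axes, for the 12 libraries of splenic and graft Tregs, coloured by subset. SP/CD127hi and graft libraries sit to the upper right of the Rora panel, and the SP/CD127-/lo libraries hold the highest Bcl6 values, 40.1 to 70.1 CPM.

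Over these 12 Treg libraries, Pearson's r of log2 CPM was 0.76 between Gata3 and Rora, 0.64 between Rora and Ahr, 0.53 between Runx3 and Ahr, -0.54 between Gata3 and Bcl6 and -0.47 between Eomes and Runx3. The libraries fall into 4 subsets and share their scaling, so these values describe the libraries and carry no test.

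Tbx21 and Eomes, the T-box factors of type 1 and cytotoxic cells, were low in all T cell subsets. Tbx21 (ENSMUSG00000001444, chr11:97098071-97115331, minus strand) had no read in the 3 SP/naive Treg libraries. It was at 1.70, 5.28 and 0.879 CPM in SP/CD127-/lo Tregs (6, 21 and 3 counts) and at 4.46, 0.918 and 6.95 CPM in SP/CD127hi Tregs (21, 3 and 24 counts). The limit of 3 counts per SP/naive library was 0.866 CPM on average. Mean levels were 3.02 times that limit in SP/CD127-/lo and 4.74 times in SP/CD127hi Tregs, and neither difference passed the test (adjusted p = 0.664 and 0.628). These ratios take no account of the spread between libraries, and the lowest library of each subset was near the limit. In the DLN, 37 reads of Tbx21 in DLN/naive replicate 3 were the only ones in 9 libraries. That library also held the only Cd8a reads of its subset, at 70.1 CPM, and no library of the subset held a read of Cd8b1, the other CD8 gene. Tolerant CD4+ T cells held 34, 11 and 1 counts and naive CD4+ T cells 1, 1 and 0 counts, a ratio of summed counts of 16.4 (95% interval 4.29 to 139, counting error only), and the ranges of their levels overlapped. CD45+CD4- cells were at 6.72, 15.98 and 5.15 CPM in naive and 9.12, 4.67 and 25.1 CPM in tolerant mice, the highest subset means of Tbx21.

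Eomes (ENSMUSG00000032446, chr9:118478212-118486132, plus strand) had no read in the 3 graft Treg libraries and at most 5.86 CPM in any Treg library. Single libraries carried most of its Treg reads, with 20 counts in SP/CD127-/lo replicate 3 and 19 counts in SP/CD127hi replicate 1 against 0 in the other 2 libraries of each subset. Naive CD4+ T cells were at 2.30, 0.317 and 1.57 CPM and tolerant CD4+ T cells at 13.2, 1.99 and 5.92 CPM, which overlapped. CD45+CD4- cells were at 55.9, 36.2 and 46.7 CPM in naive and 27.3, 64.6 and 32.9 CPM in tolerant mice, above every T cell library. The log2 fold change of naive CD4+ T cells against naive CD45+CD4- cells was -5.01 (SE 1.96, unadjusted p = 0.0111, adjusted p = 0.267). The summed level of 6 NK cell markers was 374 to 992 CPM in CD45+CD4- cells and at most 143 CPM in CD4+ T cells, that of 6 B cell markers was 2946 to 6521 CPM against at most 96.1 CPM, and that of the 2 CD8 T cell markers was 225 to 760 CPM against at most 33.5 CPM. The part of each cell type in the difference was not tested.

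In naive mice, CD4+ T cells and CD45+CD4- cells did not overlap in 4 of 7 members, against 12.9% of all genes, and 0 members were called (1.04% of all genes), with 3 at an unadjusted p under 0.05. Tbx21, Bcl6, Eomes and Ahr were the lower ones in CD4+ T cells. In tolerant mice 6 of 7 members did not overlap, against 19.1% of all genes. Gata3 and Rora were higher and Bcl6, Eomes, Runx3 and Ahr lower in tolerant CD4+ T cells.

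Runx3, the Runt factor that acts with T-bet in type 1 cells and silences Cd4 in the CD8 lineage (ENSMUSG00000070691, chr4:135120652-135177990, plus strand), overlapped among the splenic and graft Treg subsets. It was at 18.9 to 45.3 CPM in SP/naive, 16.4 to 41.0 in SP/CD127-/lo, 23.1 to 47.4 in SP/CD127hi and 25.7 to 65.5 CPM in graft Tregs. In the DLN, CD127-/lo Tregs held 3, 0 and 0 counts of Runx3. DLN/naive Tregs held 21, 49 and 52 counts (14.9, 34.3 and 32.3 CPM) and DLN/CD127hi Tregs 87, 19 and 10 counts (84.7, 14.97 and 10.4 CPM). Runx3 passed the test as lower in DLN/CD127-/lo Tregs than in DLN/naive Tregs (adjusted p = 0.0449) and than in DLN/CD127hi Tregs (adjusted p = 0.0211), in comparisons in which 0.355% and 0.418% of all genes were called. Without overlap, 1 member was lower in the first comparison (Runx3, against 6.34% of all genes) and 2 were higher in DLN/CD127hi Tregs in the second (Gata3 and Runx3, 5.37%). Between DLN/CD127hi and DLN/naive Tregs all 7 members overlapped (7.68% of all genes did not) and 0 were called (0.951%), with 3 at an unadjusted p under 0.05. From summed counts, DLN/naive Tregs exceeded DLN/CD127-/lo Tregs 37.1-fold (95% interval 12.4 to 183) and DLN/CD127hi Tregs exceeded them 48.2-fold (95% interval 16.1 to 237), intervals that cover counting error only.

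The Runx3 call against DLN/naive Tregs was lost without DLN/naive replicate 2 (adjusted p = 0.0566) and without DLN/CD127-/lo replicates 2 and 3 (0.153 and 0.151). That against DLN/CD127hi Tregs was lost without DLN/CD127hi replicate 1 (adjusted p = 0.148) and without DLN/CD127-/lo replicates 2 and 3 (0.0720 and 0.0775). Neither passed in a model of the compared libraries alone (adjusted p = 0.757 and 0.805) or after ComBat-Seq (0.601 and 0.572). The call against DLN/naive Tregs was also lost with RLE scaling (0.0506), the stricter filter (0.0533) and a replicate block (0.0552), and was kept in 3 of 8 settings. The difference between the CD127hi effects of the DLN and the spleen was 5.74 for Runx3 on the log2 scale (SE 1.70, adjusted p = 0.181), and 0 members were called for this difference by edgeR (0.118% of all genes), with 1 at an unadjusted p under 0.05 and 1 called by DESeq2. The effects against naive Tregs were compared between the DLN and the spleen in the same way. For CD127hi Tregs 0 members were called (0.225% of all genes) and 1 had an unadjusted p under 0.05, and for CD127-/lo Tregs 0 were called (0.138%) and 2 had such a p. These were Tbx21 in both, which had no read in SP/naive Tregs or in either DLN subset of tolerant mice, and Runx3 for CD127-/lo Tregs. Without DLN/naive replicate 2, both differences were called for Rora (adjusted p = 0.00139 and 0.00484), which were 0.68 and 0.04 on the log2 scale with all libraries. Summed B cell markers were 180 to 551 CPM in DLN/CD127hi, 78.5 to 229 CPM in DLN/CD127-/lo and 12.6 to 55.4 CPM in DLN/naive Tregs, and Runx3 also had 40.6 to 121 CPM in CD45+CD4- cells. The 2 CD8 T cell markers summed to 186, 1.58 and 120 CPM in DLN/CD127hi, 10.4, 1.99 and 0 CPM in DLN/CD127-/lo and 0, 0 and 70.1 CPM in DLN/naive Tregs, and DLN/CD127hi replicate 1, the library with the most Runx3, held 144 CPM of Cd8a. Whether B cells, CD8 T cells or other cells took part in the Runx3 difference was not tested.

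Ahr, the aryl hydrocarbon receptor, which senses environmental and dietary ligands (ENSMUSG00000019256, chr12:35497974-35535038, minus strand), was nearly undetected in naive CD4+ T cells, with 2, 5 and 0 counts (0.656, 1.58 and 0 CPM). Tolerant CD4+ T cells were at 13.9, 11.7 and 17.5 CPM. Graft Tregs were at 35.5, 23.3 and 56.0 CPM, SP/CD127hi Tregs at 46.3, 33.1 and 28.9 CPM and SP/CD127-/lo Tregs at 15.3, 60.4 and 19.6 CPM. SP/naive Tregs were at 14.3, 41.6 and 6.57 CPM, so all 12 libraries of these Treg subsets and all 3 of tolerant CD4+ T cells lay above all 3 naive CD4+ libraries. The log2 fold change against naive CD4+ T cells was 5.57 (SE 1.41) in graft Tregs, 5.48 (SE 1.41) in SP/CD127hi Tregs and 5.30 (SE 1.40) in SP/CD127-/lo Tregs, with adjusted p of 0.0247, 0.0361 and 0.0419. Ahr was the 1 member called in each of these comparisons, in which 0.619%, 0.422% and 0.469% of all genes were called. SP/naive Tregs (log2 fold change 4.69, SE 1.37, adjusted p = 0.142) and tolerant CD4+ T cells (4.16, SE 1.34, unadjusted p = 0.00212, adjusted p = 0.467) did not pass the test. Against naive CD4+ T cells, 4 of 7 members did not overlap in graft Tregs (Gata3, Rora and Ahr higher, Eomes lower, against 9.82% of all genes), 4 in SP/CD127hi Tregs (Tbx21, Gata3, Rora and Ahr, 11.6%), 3 in SP/CD127-/lo Tregs (Tbx21, Rora and Ahr, 12%) and 3 in SP/naive Tregs (Gata3, Rora and Ahr, 10%, with 0 called against 0.264% and 2 at an unadjusted p under 0.05). The separations of Eomes and Tbx21 lie at the counting limit. Eomes had 7, 1 and 4 counts in naive CD4+ T cells and none in graft Tregs, and the lowest Tbx21 libraries of SP/CD127hi and SP/CD127-/lo Tregs held 3 counts. Against tolerant CD4+ T cells, 3 members were higher without overlap in SP/CD127-/lo Tregs (Gata3, Rora and Bcl6, against 11.3% of all genes) and 3 in SP/CD127hi Tregs (Gata3, Rora and Ahr, 13.2%), and 0 were called (0.284% and 0.324%), with 1 and 2 at an unadjusted p under 0.05.

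The 3 calls of Ahr share the same 3 naive CD4+ libraries and rest on 7 reads there. With single libraries left out, the log2 fold change ranged from 5.04 to 6.63 in graft Tregs. It ranged from 4.96 to 6.55 in SP/CD127hi and from 4.44 to 6.36 in SP/CD127-/lo Tregs. For graft Tregs the call was lost without graft replicate 3 (adjusted p = 0.0539) and without naive CD4+ replicates 1 and 3 (0.116 and 0.151). For SP/CD127hi Tregs it was lost without SP/CD127hi replicate 1 (0.0775) and without naive CD4+ replicates 1, 2 and 3 (0.163, 0.0662 and 0.218), and for SP/CD127-/lo Tregs without any 1 of the 6 libraries (0.0507 to 0.282). All 3 were lost with the stricter filter of 10 counts in 3 libraries (0.0908 to 0.121), after ComBat-Seq (0.0556 to 0.0921) and with the compared libraries alone (0.0903 to 0.280), and were kept in the other 6 of 9 settings. Macrophage and monocyte markers, 8 genes, summed to 2.35 to 4.12 CPM in naive CD4+, 16.2 to 29.4 CPM in tolerant CD4+ and 0 to 472 CPM in splenic and graft Treg libraries. Their part in the Ahr difference was not tested.

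Ahr was also higher in tolerant than in naive CD45+CD4- cells, with 45.9, 29.4 and 50.9 CPM against 2.44, 11.4 and 17.1 CPM, ranges that did not overlap (log2 fold change 2.02, SE 1.18, adjusted p = 1). Summed B cell markers were 2946 to 4639 CPM in naive and 5118.5 to 6521 CPM in tolerant CD45+CD4- cells, without overlap. Macrophage and monocyte markers summed to 102 to 508 and 365 to 958 CPM, which overlapped. The sums of T cell and CD8 T cell markers were lower in tolerant mice. The part of these cell types in the higher Ahr was not tested. Between tolerant and naive CD45+CD4- cells 2 of 7 members did not overlap (Ahr and Rora, against 6.79% of all genes) and 0 were called (0.0355% of all genes), with 1 at an unadjusted p under 0.05. Between tolerant and naive CD4+ T cells 1 member did not overlap (Ahr, against 9.63% of all genes) and 0 were called (0.107%), with 1 at an unadjusted p under 0.05. The difference between these effects was 2.13 for Ahr on the log2 scale (SE 1.66, adjusted p = 1). For this difference 0 members were called (0.0473% of all genes), with 0 at an unadjusted p under 0.05. In the DLN, Ahr ranged widely within subsets, at 146, 19.6 and 0.620 CPM in naive, 3.82, 115 and 11.4 CPM in CD127-/lo and 149, 11.8 and 61.2 CPM in CD127hi Tregs.

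**Figure D4:**
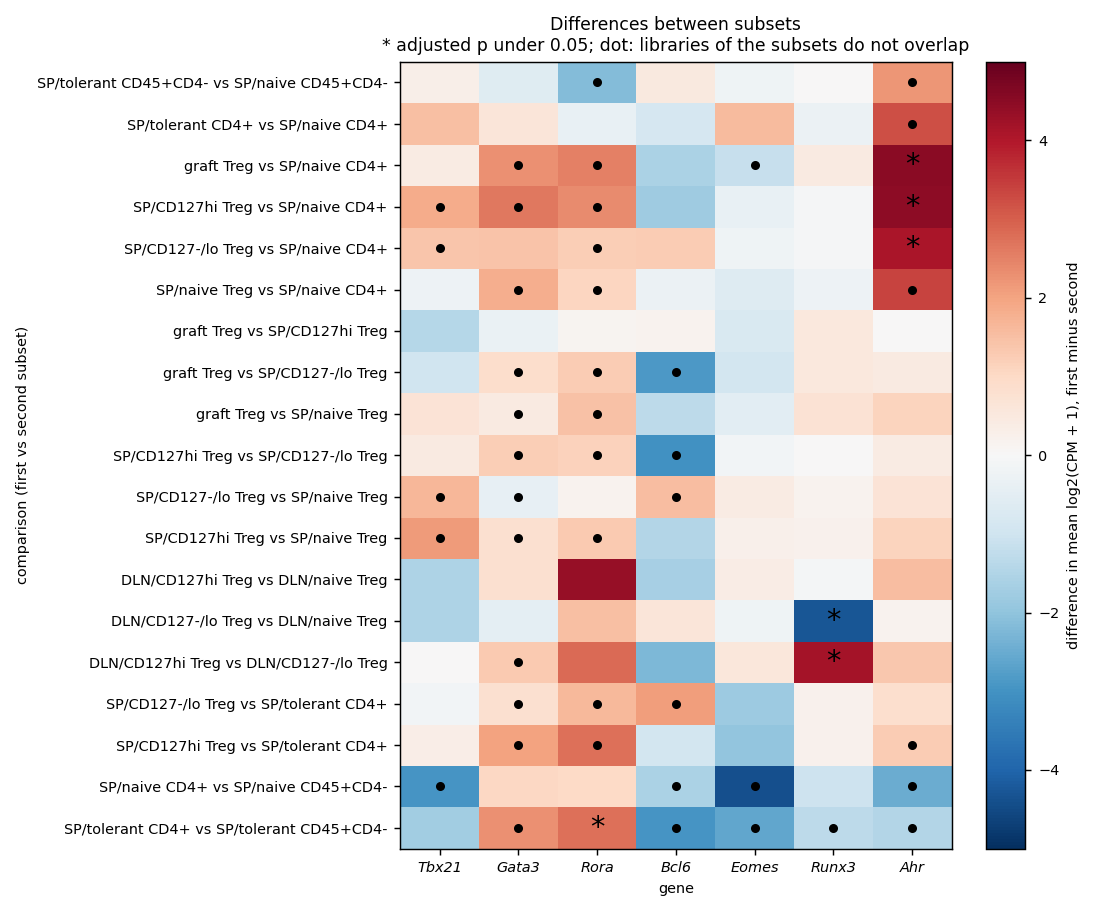
Difference in mean log2(CPM + 1) between the first and second subset (colour) for the 19 comparisons (y axis) and 7 genes (x axis). Asterisks mark the 6 pairs with an adjusted p under 0.05 and dots mark other pairs whose libraries do not overlap.

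Ordered by subset mean, neighbouring subsets mostly could not be separated. Of 10 neighbouring pairs in each order, the ranges overlapped in 10 for Tbx21, Gata3 and Bcl6, in 9 for Eomes, Runx3 and Ahr and in 8 for Rora. The highest means were in graft Tregs for Rora (317 ± 77.4 CPM), SP/CD127hi Tregs for Gata3 (251 ± 28.9 CPM), DLN/CD127hi Tregs for Ahr (74.0 ± 69.4 CPM), naive CD45+CD4- cells for Runx3 (73.1 ± 42.3 CPM) and Eomes (46.3 ± 9.86 CPM), and tolerant CD45+CD4- cells for Bcl6 (96.5 ± 25.0 CPM) and Tbx21 (12.97 ± 10.8 CPM, all mean ± SD, n = 3). The median coefficient of variation within a subset was lowest for Gata3 (0.306) and highest for Eomes (1.13).

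The genes that act with these factors were followed in 7 lists. Of all genes tested, 3.36% were called in at least 1 of the 19 comparisons, the share beside which the counts per list stand. In the type 2 list of 12 genes around GATA3, 4 genes were called in at least 1 comparison. Il1rl1, the receptor of IL-33, was at 475, 126 and 131 CPM in graft Tregs and 147, 114 and 237 CPM in SP/CD127hi Tregs, against 0, 1.58 and 0 CPM in naive CD4+ T cells (log2 fold change 8.69, SE 1.45, adjusted p = 7.33e-06 for graft Tregs). Maf was at 914, 1259 and 1160 CPM in graft Tregs and 372, 163 and 300.5 CPM in naive CD4+ T cells (2.00, SE 0.44, adjusted p = 0.00375), and Ccr8 had no read in naive CD4+ T cells and was at 70.1, 43.4 and 52.4 CPM in graft Tregs (adjusted p = 0.00451). In that comparison 3 of 12 genes were higher and 0 lower (0.619% of all genes were called), with a median log2 fold change of 0.11 against -0.22 over all genes. Il4, the cytokine of type 2 cells, was at 29.2, 46.1 and 24.7 CPM in tolerant CD4+ T cells and at most 26.0 CPM in any splenic or graft Treg library.

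In the type 1 list of 16 genes around T-bet and Eomes, 6 genes were called in at least 1 comparison. Ifngr1, which encodes a chain of the interferon-γ receptor, was at 1422, 1182 and 1057 CPM in graft Tregs and 200, 171 and 280 CPM in SP/naive Tregs (log2 fold change 2.49, SE 0.51, adjusted p = 0.00317), and 1 of 16 genes was higher in that comparison (0.13% of all genes were called). Ifng itself was at most 3.02 CPM in graft Tregs and 28.3, 59.6 and 23.2 CPM in tolerant CD4+ T cells. Other Treg subsets were uneven, with 17.8, 45.0 and 0 CPM in SP/CD127hi, 0, 70.1 and 0 CPM in DLN/CD127hi and no read in DLN/CD127-/lo Tregs. Cxcr3, the chemokine receptor associated with T-bet, was between 50.4 and 296 CPM in graft Tregs. Il18rap was at 56.5, 110 and 0 CPM in DLN/CD127hi and 0.710, 0 and 1.24 CPM in DLN/naive Tregs, which overlapped although it was called (adjusted p = 0.00171). Ccl5 was at 511, 116 and 222 CPM against 80.2, 0 and 37.2 CPM (log2 fold change 2.85, SE 0.65, adjusted p = 0.00536), in a comparison with 2 of 16 genes called (0.951% of all genes). The CD8 T cell markers, whose sums stand with Runx3, were highest in the DLN/CD127hi libraries with the most Ccl5, and their part was not tested. Nkg7, a gene of cytotoxic granules, was lower in naive CD4+ T cells than in naive CD45+CD4- cells (-2.59, SE 0.66, adjusted p = 0.0152).

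In the follicular list of 13 genes around BCL6, 4 genes were called, all between CD4+ T cells and CD45+CD4- cells, where 1.04% (naive) and 1.53% (tolerant) of all genes were called, and Icos also between tolerant and naive CD45+CD4- cells (0.0355% of all genes), where it was lower in tolerant mice (-1.95, SE 0.42, adjusted p = 0.0169), as were the summed T cell markers given with Rora, whose part was not tested. Icos, Sh2d1a and Slamf6 were called as higher in CD4+ T cells of naive and of tolerant mice, and Tox in tolerant mice. Bcl6 itself was lower in CD4+ T cells of both without overlap, but was called in neither comparison. Cxcr5 was at 51.4, 17.1 and 116 CPM in the SP/CD127-/lo libraries and 25.7, 22.6 and 30.4 CPM in the SP/CD127hi libraries, and Il21 was at 2.83, 14.3 and 14.7 CPM and 0.212, 0 and 1.45 CPM, respectively, without a call.

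In the list of 10 Runt and thymic lineage genes, 5 were called in at least 1 comparison. Itgae, which encodes CD103 and is known as a target of Runt factors, was at 115, 194 and 247 CPM in SP/CD127hi and 112, 178 and 134 CPM in graft Tregs. It was at 59.7, 137 and 48.7 CPM in SP/naive and 22.6, 69.7 and 25.5 CPM in SP/CD127-/lo Tregs, and at most 0.950 CPM in naive CD4+ T cells, and all 4 Treg subsets were called against these (adjusted p = 6.41e-08, 1.55e-07, 3.02e-06 and 5.34e-05 in the order given). Runx1, the relative of Runx3, was between 72.2 and 153 CPM in splenic Tregs, and Cbfb, the partner of both, between 120 and 295 CPM, without a call. Cd8a was called as lower and Cd4 as higher in CD4+ T cells than in CD45+CD4- cells of naive and of tolerant mice. The CD8 genes were also called as higher in DLN/CD127hi Tregs, Cd8b1 against DLN/naive and Cd8a against DLN/CD127-/lo Tregs (adjusted p = 7.40e-05 and 0.0130), with 41.9, 0.788 and 119 CPM of Cd8b1 and 144, 0.788 and 1.04 CPM of Cd8a in the 3 DLN/CD127hi libraries.

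In the type 17 list (11 genes), the Ahr pathway list (10 genes) and the list of clock genes with ROR elements (6 genes), 0 genes were called in any of the 19 comparisons. Il17a, the cytokine of type 17 cells, had a read in 2 of 33 libraries. Ahrr and Cyp1b1, classic targets of the aryl hydrocarbon receptor, were at most 5.80 and 1.09 CPM in any library. Between graft Tregs and naive CD4+ T cells, where Ahr was higher, the median log2 fold change of the Ahr pathway list was -0.06 against -0.22 over all genes. Arntl, a clock gene activated by RORα, was at 91.9, 94.0 and 81.9 CPM in SP/CD127hi and 52.0, 115 and 25.5 CPM in SP/CD127-/lo Tregs.

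Over the 24 spleen and graft libraries and 8626 genes with a mean of at least 10 CPM, the genes most like Gata3 by Pearson's r of log2 CPM were Syt11 (0.91), Hnrnpll (0.90) and Plcb4 (0.88). Those most like Rora were Ifih1 (0.90), Maf (0.90) and Ikzf2 (0.88), and those most like Eomes were Siglecg (0.93), Fgd2 (0.92) and Pou2af1 (0.92). For Bcl6 they were Prkcb (0.79), Mccc2 (0.78) and Fam214a (0.78), for Ahr Fgl2 (0.78), Fam174a (0.77) and Cep170 (0.77), for Tbx21 Slc15a4 (0.78), Rpl13a (0.78) and Unc93b1 (0.78), and for Runx3 Blnk (0.72), Shc1 (0.72) and Mtfr1 (0.71). These r values describe libraries of 8 subsets of 3, and the highest of 8626 values is high by selection.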

How the data were processed

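Sorted cells of 33 libraries were profiled by SMART-Seq v4, a kit that does not mark strand. The authors trimmed reads with Trim Galore, checked them with FastQC and aligned them with STAR to mm10 with an EGFP sequence added, and deposited raw counts of read pairs per Ensembl gene (the unstranded column was used). Their methods also name HTSeq, while the layout of the tables is that of counts made by STAR, and tool versions are not given in the sources used here. Rows for pairs without a gene (37.0% to 69.2% of pairs) were left out. Groups came from the labels. Genes with at least 1 CPM in 1 library were tested over all 33 libraries with edgeR 4.0.16 (R 4.3.3), TMM scaling, a quasi-likelihood fit with a term per subset, and Benjamini-Hochberg adjustment over 25347 genes in each comparison. Levels are TMM-scaled CPM. The test was run on simulated data first. Alternatives were edgeR's likelihood ratio test, DESeq2 1.42.0, RLE scaling, no filter, at least 10 counts in 3 libraries, a replicate block, the compared libraries alone, ComBat-Seq (sva 3.50.0) with the sequencer as batch, each library left out, and, chosen after seeing the data, the DLN libraries left out. The 7 genes and the gene lists were chosen with earlier results of these data known. From each list, the first 2 genes and up to 4 called genes with the smallest adjusted p are named, except 1 gene that is not reported here.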

Additional observations from a re-analysis of the deposited data

Results flagged for a closer look

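Differences between effects were tested for the 7 factors and the named genes of the lists. The effect of CD127hi against naive Tregs on Cd8b1, a chain of the CD8 coreceptor, differed between the DLN and the spleen by 12.09 on the log2 scale (SE 2.15, adjusted p = 0.000153). DLN/naive Tregs had no read of Cd8b1, so this fitted value depends on the prior count and is no measure of size. The effect of tolerance on Maf, a factor of type 2 and follicular helper cells, differed between CD4+ T cells and CD45+CD4- cells by 2.73 on the log2 scale (SE 0.62, adjusted p = 0.0315). Maf was 279 ± 106 CPM in naive and 253 ± 97.2 CPM in tolerant CD4+ T cells, and 62.0 ± 57.9 CPM in naive and 8.503 ± 7.36 CPM in tolerant CD45+CD4- cells (mean ± SD, n = 3). The summed level of 8 T cell markers was 2606 to 3811 CPM in naive and 1446 to 1892 CPM in tolerant CD45+CD4- cells, and its part in the difference was not tested. For the 7 factors themselves, no such difference passed the test with all libraries. Without DLN/naive replicate 2, Rora passed for the effects of CD127hi and of CD127-/lo against naive Tregs (adjusted p = 0.00139 and 0.00484), with 1 count of Rora in the remaining DLN/naive libraries.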

How the results depend on the processing

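No called difference of the 7 factors turned its direction without any single library, while the sign of the fold change turned in 37 of the 133 pairs and in 17 of 28 differences between effects, none of them called. Among Tregs against CD4+Foxp3- T cells, the 3 calls (Ahr) were kept with DESeq2, which made 7 calls in all with those of Gata3 and a further one of Ahr, and without the 9 DLN libraries (an alternative chosen after seeing the data), which made 9 calls of Gata3, Rora and Ahr. They were lost with the compared libraries alone, where 5 others were called (Gata3 and Rora), and with the stricter filter of 10 counts or ComBat-Seq, where 0 were. Among DLN Tregs, the 2 calls became 1 with RLE scaling, the stricter filter or the replicate block (Runx3 in DLN/CD127hi against DLN/CD127-/lo Tregs), and 0 with ComBat-Seq or the compared libraries alone. Between CD4+ T cells and CD45+CD4- cells, the 1 call (Rora) was lost with the likelihood ratio test or the stricter filter (0 calls) and with DESeq2 (3 others, of Eomes, Ahr and Gata3), and was kept among 2 calls without the DLN libraries and 5 with the compared libraries alone. The CD127hi effect of the DLN against the spleen had 0 calls, and 1 (Runx3) with DESeq2. Leaving out 1 library gave 0 to 3 calls for Tregs against CD4+Foxp3- T cells, 0 to 3 for DLN Tregs, 0 to 1 for CD4+ T cells against CD45+CD4- cells and 0 to 0 for the other pairwise groups and for the CD127hi effect of the DLN against the spleen. The 3 calls in the DLN came without DLN/naive replicate 2 and included 2 of Rora, and Rora was then also called for the DLN against the spleen in the effects of CD127hi and CD127-/lo against naive Tregs (adjusted p = 0.00139 and 0.00484). The cause of these changes was not tested. Same-numbered libraries were compared over 8587 genes, and no comparison had all 3 correlations over 0.1. The main model therefore did not pair the samples. The highest correlation was 0.149, for replicate 1 of SP/CD127-/lo Tregs and tolerant CD4+ T cells (0.092 and 0.005 for replicates 2 and 3). Such values cannot show that the libraries came from different mice, so pairing is not settled. With the replicate block, Runx3 in DLN/CD127-/lo against DLN/naive Tregs was not called (adjusted p = 0.0552) and Rora in SP/CD127hi Tregs against tolerant CD4+ T cells was (adjusted p = 0.0211). At the depth of the DLN libraries, a gene without a read could still be at up to 1.64 to 3.11 CPM.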
